A study of Rattus norvegicus with 6 samples.

Results

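The genes described here run the G2 phase of the cell cycle and mitosis, the division of the duplicated chromosomes between daughter cells. They are 54 genes given by symbol: kinases, cyclins and their activators, the chromosomal passenger complex, the kinetochore, the spindle checkpoint and anaphase machinery, kinesins, spindle and cytokinesis factors, and proteins of chromosome structure. A row of the count table was taken where its symbol equalled a listed one, which matched 52 of the 54 genes among 20609 rows, and all 52 were among the 12624 genes that had enough counts for a test. Ccnb2 was not matched, so only its promoter is included below. Sgo1, which protects the centromere, had no row of that symbol, and the row of its older symbol Sgol1 stayed outside the list, with a fitted log2 fold change of -0.11 (SE 0.089, adjusted p = 0.435, edgeR) and overlapping groups. The genes were selected on their function with the fold changes and adjusted p-values of the same comparison known, so the changes given below describe them and support nothing about them as a group.

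The libraries were made from PC12, a rat cell line from a pheochromocytoma, a tumor of the adrenal medulla. In 3 libraries the cells had received a control plasmid (Ctrl), and in 3 a plasmid for PCBP-1 tagged with EGFP (PCBP1-OE). PCBP-1 is an RNA-binding protein of the poly(rC)-binding family, and the transfection reagent was Lipofectamine-2000. The methods describe a transfection with a set harvest time for RT-qPCR, which was later run on left-over total RNA, and name no separate time for RNA-seq, while elsewhere the overexpression is described as stable. The sources name neither what the control plasmid encoded nor the share of cells that took up a plasmid. The study calls the 3 libraries of a group biological replicates, and neither it nor the labels say whether they came from separate cultures, so the p-values measure only the spread between these libraries. The study states no cell cycle synchronization, so each library averages over cells of every phase. In such bulk RNA, fewer cells in G2 and mitosis and less RNA per dividing cell cannot be told apart.

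The 6 libraries held 19730209 to 22315623 counts on genes. A listed gene had 96 to 6304 reads per library, for which counting error alone is 10.2% down to 1.26%. The spread between replicates, given below, is not part of this error. Pcbp1 itself is not analysed here, which leaves the overexpression without a check in the counts. Defining markers of chromaffin cells were at or near 0, with 0 to 5 counts for Dbh, 0 to 3 for Chga, 0 to 4 for Ddc and 0 to 9 for Chgb per library, against 141 to 185 for Th, so the markers go against a chromaffin identity. Sox10, a transcription factor of glia and the neural crest, had 7160 to 9007 counts, S100b 4143 to 5339 and Pdgfra 3939 to 4941. The summed level of 5 glial markers was 620 to 664 CPM (counts scaled for library size) in Ctrl and 586 to 606 in PCBP1-OE. The sum of 3 fibroblast markers was 224 to 229 against 199 to 211 CPM and that of 3 leukocyte markers 6.53 to 7.52 against 5.87 to 6.04 CPM, with Ptprc, the defining leukocyte gene, at 0 to 3 counts. The sum of 6 chromaffin markers, at 8.47 to 9.87 against 8.62 to 9.90 CPM, overlapped between the groups, and so did that of 2 endothelial markers. More genes had a count in PCBP1-OE, 17153 to 17390 against 16950 to 17085. The part of these differences in the results below was not tested.

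Entry into mitosis is driven by the kinase CDK1 bound to cyclin B, which the CDC25 phosphatases switch on. Polo-like and Aurora kinases then build the spindle, kinetochores attach the chromosomes to its microtubules, and the spindle checkpoint holds back the anaphase-promoting complex until every chromosome is attached. Many of these genes are transcribed in G2 and mitosis and kept low in other phases by a cell cycle homology region in their promoters, with the core letters TTTGAA or TTCGAA, often beside CCAAT boxes bound by NF-Y, and FOXM1 and MYB-family complexes act on them. Their RNA is a common measure of dividing cells.

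The promoters show these letters. Promoter windows of 300 bases, from 250 before to 50 after the annotated start, were taken from RefSeq (rat build GRCr8), which matched 46 of the 54 genes. TTTGAA or TTCGAA stood on either strand in 33 of the 46 (71.7%), against 19.7% of all 33469 promoters and 13.5% of the 8823 promoters of genes tested. CCAAT, on either strand, stood in 35 (76.1%), against 37.5% and 38.3%. Both motifs stood in 28 (60.9%), against 7.95% and 5.68%, and where TTTGAA ran into ATTGG the motifs shared a base. The median GC content was 58.8% in these promoters and 61.0% in those of genes tested. Among promoters of listed genes that passed the test and of those that did not, 13 of 22 held both motifs in each case (59.1%). The 46 also include Ccnb2 and Sgo1, which had no count row of that symbol and hold both motifs. In the other lists described below, 25 of 80 promoters of further mitosis genes (31.2%) and 4 of 40 of S-phase genes held both.

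The following windows, 150 bases long from 120 before the start, show this arrangement in genes that the results turn on, with capitals marking each match to TTTGAA, to its variant TTCGAA or to a CCAAT box on either strand. On the opposite strand TTTGAA reads as TTCAAA, and a CCAAT box reads as ATTGG. Cdk1, Plk1, Cdc20 and Tacc3 were lower in PCBP1-OE and hold both motifs. Hmmr, which was not lower, holds both as well. Smc4, the listed gene whose PCBP1-OE libraries all lay above Ctrl, holds only TTTGAA here. Both Hmmr and Smc4 were chosen after their values were seen. Ncaph, among the largest decreases, holds none of these letters. Aurka, Melk and Kif2c, which passed with a decrease and are not shown, hold none either. A match describes these letters and no site of binding.
Cdk1 (chr20:19265173-19265322, + strand): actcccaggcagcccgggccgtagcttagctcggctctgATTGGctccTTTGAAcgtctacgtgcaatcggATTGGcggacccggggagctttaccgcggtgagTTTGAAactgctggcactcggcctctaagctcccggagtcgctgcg
Plk1 (chr1:186147538-186147687, + strand): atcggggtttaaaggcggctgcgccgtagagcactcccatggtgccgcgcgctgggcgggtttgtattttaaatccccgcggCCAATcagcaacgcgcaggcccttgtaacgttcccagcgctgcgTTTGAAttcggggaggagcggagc
Cdc20 (chr5:137255770-137255919, - strand): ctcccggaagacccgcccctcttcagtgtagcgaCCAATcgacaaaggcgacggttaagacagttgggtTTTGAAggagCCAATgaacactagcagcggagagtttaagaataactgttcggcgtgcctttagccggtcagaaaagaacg
Tacc3 (chr14:81289669-81289818, - strand): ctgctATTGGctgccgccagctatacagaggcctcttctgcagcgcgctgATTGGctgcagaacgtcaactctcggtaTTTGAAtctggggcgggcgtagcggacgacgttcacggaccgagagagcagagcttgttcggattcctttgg
Hmmr (chr10:25665186-25665335, - strand): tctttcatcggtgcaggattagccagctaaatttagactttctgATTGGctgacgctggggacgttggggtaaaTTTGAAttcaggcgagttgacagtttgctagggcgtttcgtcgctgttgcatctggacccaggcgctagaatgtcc
Smc4 (chr2:155550142-155550291, + strand): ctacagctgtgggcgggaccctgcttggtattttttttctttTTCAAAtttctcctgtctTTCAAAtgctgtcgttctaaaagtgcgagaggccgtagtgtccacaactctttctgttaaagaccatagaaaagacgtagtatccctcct
Ncaph (chr3:134852473-134852622, - strand): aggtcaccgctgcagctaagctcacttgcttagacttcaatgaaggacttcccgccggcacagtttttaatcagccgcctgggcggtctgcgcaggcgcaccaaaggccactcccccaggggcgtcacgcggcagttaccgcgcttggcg

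Most of the listed genes were lower in PCBP1-OE, by small amounts. In edgeR's quasi-likelihood test, 27 of the 52 passed an adjusted p (FDR) of 0.05 with a decrease and 0 with an increase, while 34 had a decrease and 1 an increase at an unadjusted p under 0.05. Over all 12624 genes tested, 9.45% passed, 5.0% with a decrease and 4.45% with an increase. An unadjusted p under 0.05 was found for 3588 of the 12624, in either direction. DESeq2 gave 26 decreases and 0 increases among the 52, where 11.2% of all genes passed. In edgeR's exact test these were 27 and 0, where 12.7% of all genes passed. The median fitted log2 fold change was -0.20, which is a change of -13.1%, against 0.0029 over all genes tested, and the values ran from -0.41 for Cdk1 to 0.26 for Anln. Of the 52 genes, 44 had a value below 0 and 8 above, and none reached a 2-fold change. In 32 genes every PCBP1-OE library lay below every Ctrl library and in 1 above, whereas 19 overlapped. Over all genes tested these shares were 16.5% and 14.1%. Since the list was chosen with this comparison known, nothing is read from the difference to those shares.

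The share of genes that passed also differed with the level of a gene. Among the 8461 tested genes with a mean level in their range, 7.0 to 282 CPM, 5.85% passed with a decrease and 5.53% with an increase. Among the 2427 at the levels that the middle 50% of the listed genes spanned, 44.6 to 99.1 CPM, these shares were 8.24% and 5.81%. The spread between replicates was small, with a median biological coefficient of variation of 4.64% for the listed genes and 6.83% for all genes tested. The 27 genes that passed fell by 11.0% to 24.9%, with FDR from 0.000779 to 0.04995, so the threshold cut through the list: Bub3 at 0.04995 lay just inside and Ndc80 at 0.0656 just outside. The 25 others had a median log2 fold change of -0.034, from -0.25 to 0.26, and 17 of them lay below 0.

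Library by library, the listed genes together made up 4655, 4642 and 4461 CPM in Ctrl and 4108, 4030 and 4069 CPM in PCBP1-OE. The means were 4586 ± 109 (SD, n = 3) and 4069 ± 39.3 (SD, n = 3), a difference of -11.3%, and the groups did not overlap. Ctrl replicate 3 was the control nearest to PCBP1-OE and was the lowest Ctrl library for 30 of the 52 genes. The median gene stood 0.14, 0.13 and 0.052 above its mean log2 level in the 3 Ctrl libraries and -0.085, -0.11 and -0.072 from it in the 3 PCBP1-OE libraries. No PCBP1-OE library stood apart in this measure. The map of all genes by library shows these shifts gene by gene.

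**Figure D1:**
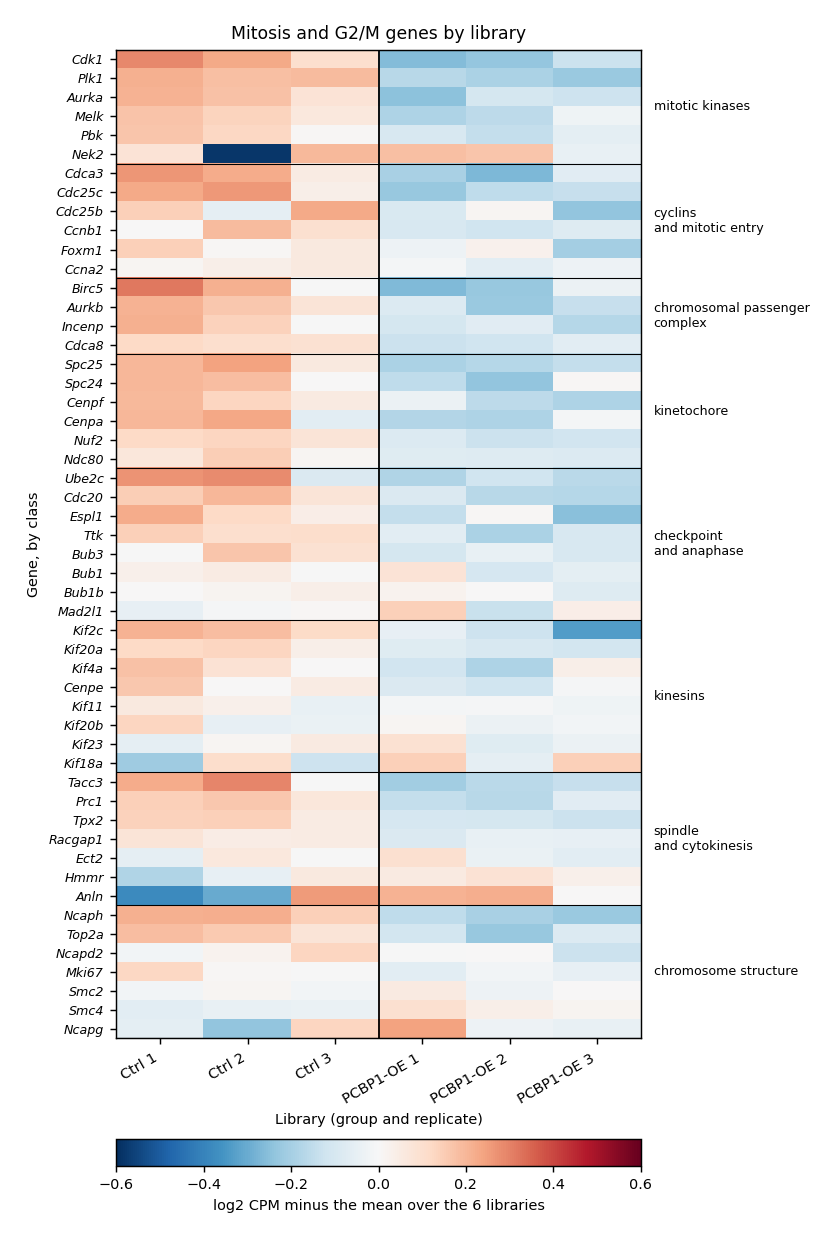
Levels of the 52 genes (rows, by class) in the 6 libraries (columns), as log2 CPM minus the gene's mean over the libraries, red above and blue below the mean. Most rows change from red in Ctrl to blue in PCBP1-OE, paler in Ctrl replicate 3, while Anln is blue in Ctrl replicates 1 and 2 only and Nek2, Hmmr, Kif18a, Ncapg and Smc4 are among the rows that do not follow the others.

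The mitotic kinases held the largest decreases, with 5 of 6 past the threshold, a median log2 fold change of -0.28 and a summed level of 437 ± 18.6 CPM in Ctrl and 345.6 ± 8.36 CPM in PCBP1-OE (SD, n = 3). Cdk1, the kinase whose activation starts mitosis, gave 179.8, 172.3 and 157.6 CPM in Ctrl and 122.9, 125.2 and 134.6 CPM in PCBP1-OE. It fell by 24.9% (log2 fold change -0.41, SE 0.056, edgeR adjusted p = 0.00263), and its lowest Ctrl library stood well above its highest PCBP1-OE library. Plk1, the polo-like kinase of centrosome maturation and mitotic entry, gave 113.8, 111.1 and 111.8 CPM against 87.35, 86.19 and 84.08 CPM. It was the gene with the tightest replicates of the kinases and fell by 23.5% (log2 fold change -0.39, SE 0.042, edgeR adjusted p = 0.000779), the smallest adjusted p of the list.

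Aurka, the Aurora kinase of the spindle poles, read 51.36, 50.21 and 47.05 CPM in Ctrl and 37.44, 41.28 and 40.79 CPM in PCBP1-OE, without overlap (log2 fold change -0.31, SE 0.061, edgeR adjusted p = 0.0130). Melk, a kinase expressed in dividing cells, read 45.29, 44.17 and 42.01 against 35.40, 36.08 and 39.51 CPM (log2 fold change -0.24, edgeR adjusted p = 0.0337), and Pbk, a mitotic kinase of the MAP kinase kinase family, 57.48, 55.86 and 51.55 against 48.01, 46.49 and 49.27 CPM (log2 fold change -0.20, edgeR adjusted p = 0.0477). In both genes Ctrl replicate 3 was the control closest to PCBP1-OE. Nek2, a kinase of centrosome separation, did not pass, at 7.293, 4.599 and 7.893 against 7.805, 7.732 and 6.688 CPM. Its groups overlapped (log2 fold change 0.17, SE 0.18, edgeR adjusted p = 0.583), and at 96 to 177 counts per Ctrl library it was the gene with the fewest reads. Counting Aurkb, Ttk and Bub1 of the other classes as well, 7 of 9 protein kinases passed with a decrease, with a median log2 fold change of -0.24. Bub1b, described below, was not counted with them and did not pass. Over all genes tested, 5.0% passed with a decrease.

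The plot of levels by library shows Cdk1 and Plk1 beside genes of the other classes.

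**Figure D2:**
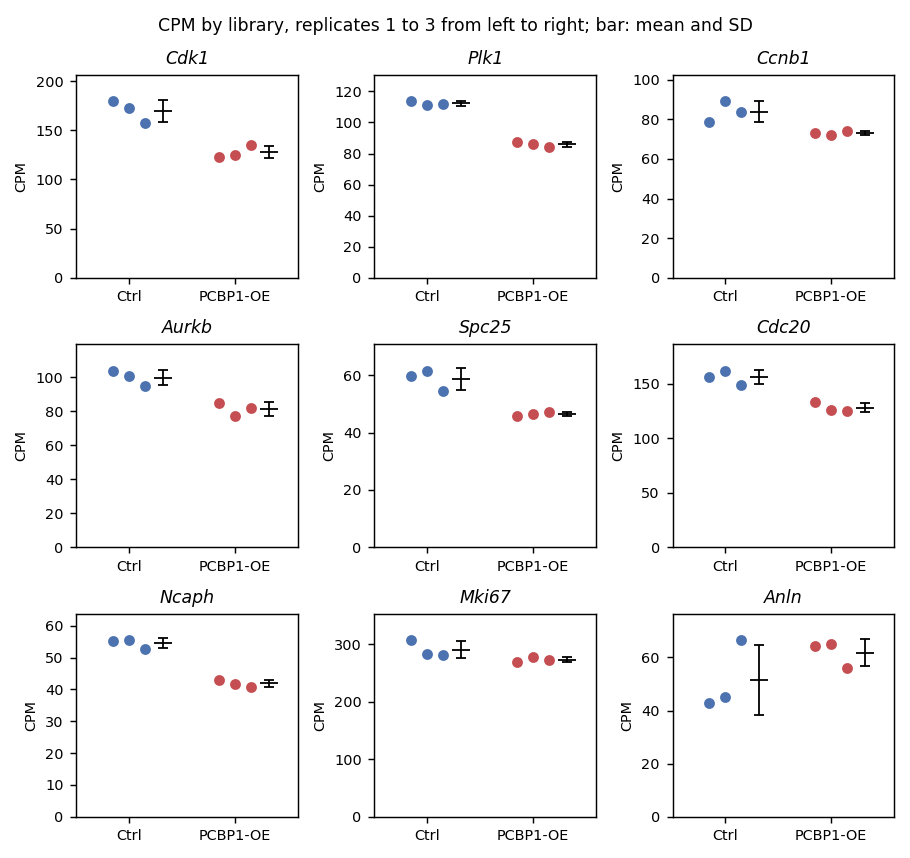
CPM of 9 listed genes in each library (points, replicates 1 to 3 from left to right, each vertical axis starting at 0), with the mean and SD of the 3 libraries of a group beside them. Cdk1, Plk1, Ccnb1, Aurkb, Spc25, Cdc20 and Ncaph have all PCBP1-OE libraries below all Ctrl libraries at FDR under 0.05, Mki67 is lower without passing the test, and Anln overlaps because Ctrl replicate 3, at 66.53 CPM, lies above all others.

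Cyclins and regulators of mitotic entry summed to 348.1 ± 7.81 CPM in Ctrl and 297.3 ± 2.64 CPM in PCBP1-OE (SD, n = 3), a difference of -14.6%, and 3 of 6 passed with a decrease. Ccnb1, the cyclin B that activates Cdk1, gave 78.54, 89.30 and 83.70 CPM against 73.38, 72.21 and 74.33 CPM. The groups stood apart and it fell by 12.6% (log2 fold change -0.19, SE 0.053, edgeR adjusted p = 0.0390). Cdc25c, a phosphatase that activates the Cdk1 complex, gave 21.52, 21.99 and 18.82 against 15.70, 16.55 and 16.69 CPM (log2 fold change -0.35, SE 0.090, edgeR adjusted p = 0.0339). Cdca3, a ubiquitin ligase adaptor that leads to degradation of the mitosis inhibitor Wee1, gave 121.2, 117.7 and 104.4 against 88.35, 83.71 and 96.39 CPM (log2 fold change -0.35, SE 0.064, edgeR adjusted p = 0.00978). Ctrl replicate 3 was again the lowest control in both genes, yet above every PCBP1-OE library.

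Ccna2, the cyclin A of S phase and G2, gave 52.53, 53.47 and 54.23 CPM in Ctrl and 51.73, 49.81 and 51.05 CPM in PCBP1-OE. All 3 PCBP1-OE libraries lay below Ctrl, but the log2 fold change of -0.07 (SE 0.050) was near its standard error and did not pass (edgeR adjusted p = 0.384). Foxm1, the transcription factor that drives many genes of this list, gave 46.36, 42.21 and 43.75 against 41.11, 42.72 and 36.45 CPM with overlapping groups (log2 fold change -0.14, SE 0.069, edgeR adjusted p = 0.212). Cdc25b, the phosphatase of the same family that acts at the centrosome, did not pass either (log2 fold change -0.21, edgeR adjusted p = 0.130).

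All 4 listed genes of the chromosomal passenger complex, which corrects faulty chromosome attachments, passed with a decrease and did not overlap. Their sum was 302.9 ± 16.4 CPM in Ctrl and 251.3 ± 5.03 CPM in PCBP1-OE (SD, n = 3). Aurkb, its kinase subunit, gave 104.0, 100.6 and 94.90 CPM against 84.95, 77.27 and 81.84 CPM, and fell by 18.5% (log2 fold change -0.29, SE 0.052, edgeR adjusted p = 0.00961). Birc5 (survivin), the subunit that helps to target the complex to centromeres, gave 64.92, 60.37 and 52.04 against 43.38, 44.46 and 50.80 CPM (log2 fold change -0.35, SE 0.081, edgeR adjusted p = 0.0221). Its replicates were wide, and Ctrl replicate 3 and PCBP1-OE replicate 3 nearly met. Incenp, the scaffold subunit, fell by 14.9% (edgeR adjusted p = 0.0350), from 66.04, 62.76 and 56.99 to 53.05, 54.37 and 50.64 CPM. Cdca8 (borealin) fell by 13.4% (edgeR adjusted p = 0.0179), from 82.93, 81.73 and 81.43 to 69.70, 70.23 and 73.11 CPM, with the tightest Ctrl libraries of the complex.

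At the kinetochore, the protein layer that binds chromosomes to microtubules, 4 of 6 genes passed with a decrease and all 6 had an unadjusted p under 0.05. Of all 12624 genes tested, 3588 had such a p. The summed level of the 6 genes was 386.1 ± 19.7 CPM in Ctrl and 327.4 ± 6.23 CPM in PCBP1-OE (SD, n = 3). The list holds all subunits of the NDC80 complex, the microtubule-binding rod of the kinetochore. Spc25 gave 59.98, 61.71 and 54.40 CPM against 45.83, 46.44 and 47.38 CPM (log2 fold change -0.33, SE 0.058, edgeR adjusted p = 0.00927), and Nuf2 72.52, 72.92 and 70.55 against 63.03, 61.06 and 61.72 CPM (log2 fold change -0.22, SE 0.046, edgeR adjusted p = 0.0178). Both stood apart from Ctrl with narrow PCBP1-OE replicates.

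Spc24 passed (log2 fold change -0.26, SE 0.074, edgeR adjusted p = 0.0477) although it overlapped slightly, since Ctrl replicate 3 at 44.06 CPM lay just under PCBP1-OE replicate 3 at 44.16 CPM, beside 50.44 and 50.02 CPM in the other controls and 39.57 and 37.27 CPM in the other PCBP1-OE libraries. It was the only one of the 27 genes that overlapped. Ndc80, the subunit that gives the complex its name, did not pass (log2 fold change -0.15, SE 0.049, edgeR adjusted p = 0.0656), although its libraries, at 75.28, 79.58 and 72.24 against 68.16, 68.05 and 67.85 CPM, did not overlap. The log2 fold changes of the 4 subunits therefore ranged from -0.33 to -0.15, and differences between them were not tested. Cenpf, a large kinetochore protein of G2 and mitosis, gave 98.89, 94.62 and 89.68 against 84.31, 77.47 and 76.12 CPM (log2 fold change -0.25, SE 0.054, edgeR adjusted p = 0.0179). Cenpa, the histone H3 variant that marks the centromere, had the same fitted size, -0.25, with wider replicates and an edgeR adjusted p of 0.0747.

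Of 8 genes of the spindle checkpoint and of anaphase, 4 passed with a decrease. The sum was 682.5 ± 22.8 CPM in Ctrl and 600.8 ± 11.7 CPM in PCBP1-OE (SD, n = 3). The members that activate or work with the anaphase-promoting complex had the largest decreases of the class. Cdc20, its mitotic activator and the target that the checkpoint blocks, gave 156.5, 162.0 and 149.0 CPM against 133.0, 125.7 and 125.3 CPM, and fell by 17.8% (log2 fold change -0.28, SE 0.048, edgeR adjusted p = 0.00839). Ube2c, the ubiquitin-conjugating enzyme of the complex, gave 81.14, 81.88 and 63.32 against 59.40, 61.95 and 60.14 CPM (log2 fold change -0.32, SE 0.081, edgeR adjusted p = 0.0326). Here Ctrl replicate 3 lay just above the PCBP1-OE libraries and far below the other controls. Espl1 (separase), the protease that cuts cohesin, read -0.25 on the log2 scale without overlap but did not pass (edgeR adjusted p = 0.0684).

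Of the checkpoint proteins themselves, Ttk and Bub3 passed and Bub1, Bub1b and Mad2l1 did not, and differences between them were not tested. Ttk (Mps1), the kinase at the head of the checkpoint, gave 66.10, 64.01 and 64.22 CPM against 57.13, 52.44 and 56.00 CPM (log2 fold change -0.23, SE 0.051, edgeR adjusted p = 0.0197), without overlap. Bub3, a scaffold of the checkpoint, gave 183.2, 206.0 and 195.5 against 170.6, 177.9 and 171.8 CPM and passed only at the threshold (log2 fold change -0.17, SE 0.050, edgeR adjusted p = 0.04995). Bub1 and Bub1b, the kinase and the BubR1 protein that bind Bub3, had log2 fold changes of -0.05 and -0.03 (edgeR adjusted p = 0.584 and 0.727) and overlapping groups. Mad2l1, which binds and inhibits Cdc20, gave 32.84, 33.82 and 34.11 against 37.57, 31.03 and 34.92 CPM, and its PCBP1-OE libraries lay on both sides of Ctrl (log2 fold change 0.04, SE 0.074, edgeR adjusted p = 0.769).

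**Figure D3:**
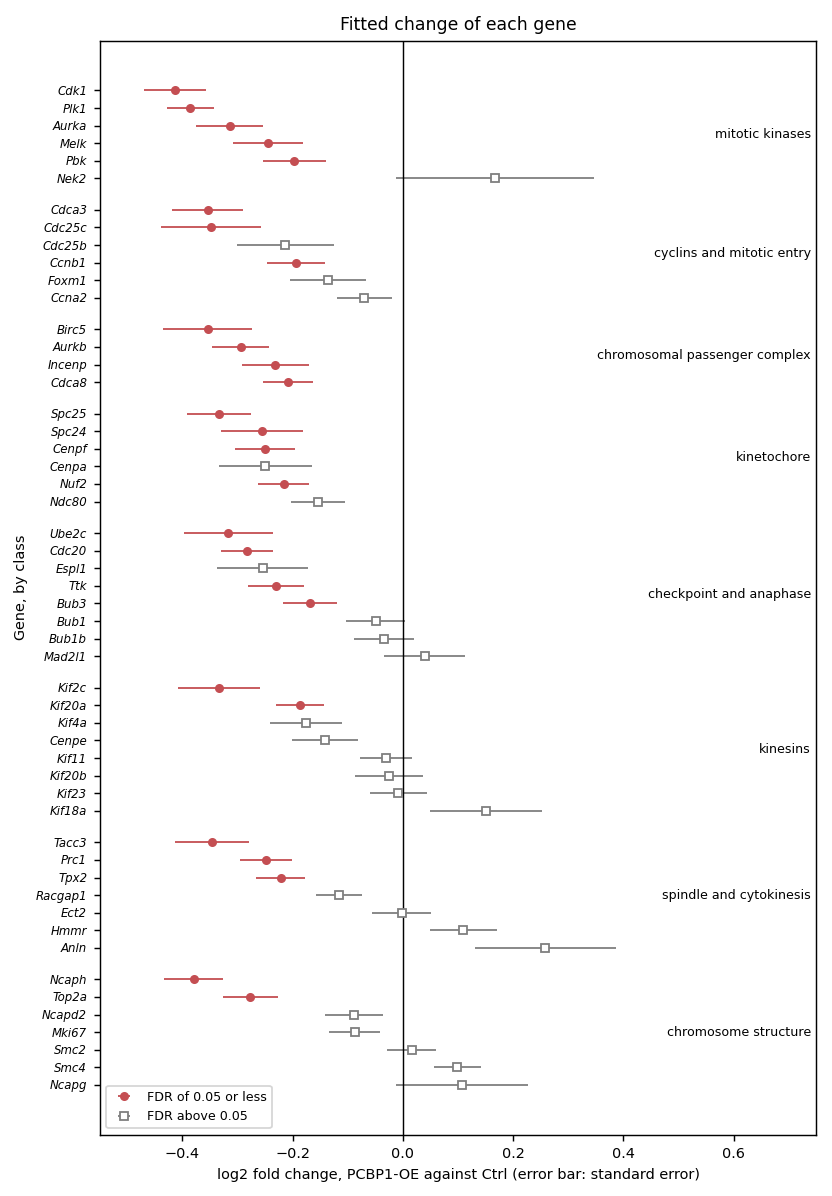
Fitted log2 fold change of PCBP1-OE against Ctrl for each of the 52 genes, by class, with its standard error (bars); filled points have an FDR of 0.05 or less and open squares do not. The 27 filled points lie between -0.41 and -0.17, and the 8 genes above 0 are all open.

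Kinesins, the microtubule motors, and the proteins of chromosome structure had the class medians nearest to 0. Of 8 kinesins, 2 passed with a decrease, the median log2 fold change was -0.086, and the sum was 593.4 ± 14.4 CPM in Ctrl and 547.2 ± 12.0 CPM in PCBP1-OE (SD, n = 3). Kif2c (MCAK), which depolymerizes microtubules at centromeres, gave 42.53, 41.92 and 39.87 CPM against 35.58, 33.75 and 29.20 CPM and fell by 20.6% (log2 fold change -0.33, SE 0.074, edgeR adjusted p = 0.0201). Kif20a, a motor of cytokinesis, gave 209.3, 210.3 and 197.1 against 183.2, 180.2 and 178.3 CPM and fell by 12.2% (log2 fold change -0.19, SE 0.044, edgeR adjusted p = 0.0242). In both genes the groups stood apart.

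The remaining 6 kinesins did not pass. Kif4a, a chromosome motor, and Cenpe, the kinetochore motor that aligns chromosomes, read -0.18 and -0.14 on the log2 scale (edgeR adjusted p = 0.0998 and 0.138), and of these only Cenpe did not overlap. Kif11 (Eg5), which pushes the spindle poles apart, and Kif23, a subunit of centralspindlin, read -0.03 and -0.01, as did Kif20b with -0.03, all with overlapping groups. Kif18a, the motor that damps chromosome movements, gave 16.01, 19.93 and 16.99 against 20.47, 17.84 and 20.47 CPM, with a fitted log2 fold change of 0.15 (SE 0.10, edgeR adjusted p = 0.357).

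Among 7 spindle and cytokinesis factors, 3 passed with a decrease, and the sum was 881.6 ± 10.7 CPM in Ctrl and 802.8 ± 2.01 CPM in PCBP1-OE (SD, n = 3). Tpx2, which activates Aurora A on the spindle, gave 178.1, 179.2 and 167.8 CPM against 151.3, 150.8 and 148.1 CPM (log2 fold change -0.22, SE 0.044, edgeR adjusted p = 0.0138). Tacc3, which stabilizes spindle microtubules together with clathrin, gave 87.62, 92.04 and 74.87 against 64.89, 67.01 and 68.10 CPM and fell by 21.4% (log2 fold change -0.35, SE 0.067, edgeR adjusted p = 0.0126). Prc1, which bundles microtubules of the central spindle, gave 209.2, 212.1 and 198.4 against 171.8, 168.9 and 180.9 CPM and fell by 15.8% (log2 fold change -0.25, SE 0.047, edgeR adjusted p = 0.0111). In none of these 3 genes did the groups overlap.

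The 4 other genes of the class did not pass, and whether they differ from these was not tested. Racgap1, the partner of Kif23 in centralspindlin, gave 230.4, 225.5 and 225.9 CPM against 205.8, 212.0 and 211.3 CPM, which did not overlap (log2 fold change -0.12, SE 0.041, edgeR adjusted p = 0.0859). Ect2, the RhoA activator that centralspindlin recruits, read -0.0023 on the log2 scale (edgeR adjusted p = 0.982). Anln (anillin), the scaffold of the contractile ring, gave 42.74, 45.18 and 66.53 CPM in Ctrl and 64.44, 64.88 and 55.85 CPM in PCBP1-OE, so that Ctrl replicate 3 decided its spread (log2 fold change 0.26, SE 0.13, edgeR adjusted p = 0.205). Without Ctrl replicate 3 its log2 fold change was 0.49 with an adjusted p of 0.00027, and with no filter on low counts it was 0.26 with 0.00046. Hmmr, a spindle protein that binds hyaluronan, gave 51.20, 55.96 and 60.29 against 60.13, 61.56 and 59.17 CPM (log2 fold change 0.11, SE 0.061, edgeR adjusted p = 0.255), and without Ctrl replicate 3 it read 0.17 with an adjusted p of 0.0449.

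Of 7 genes of chromosome structure, 2 passed with a decrease, and the sum was 954.3 ± 15.8 CPM in Ctrl and 896.6 ± 12.8 CPM in PCBP1-OE (SD, n = 3), with a difference of -6.05%, the smallest of the 8 classes. Ncaph, the kleisin subunit of condensin I, gave 55.33, 55.48 and 52.71 CPM against 42.93, 41.78 and 40.89 CPM. It fell by 23.2% with narrow replicates in both groups (log2 fold change -0.38, SE 0.053, edgeR adjusted p = 0.00343). Top2a, the topoisomerase that untangles sister chromatids, gave 220.9, 216.8 and 204.9 against 180.3, 166.3 and 183.8 CPM and fell by 17.5% (log2 fold change -0.28, SE 0.050, edgeR adjusted p = 0.0102). Mki67, the Ki-67 protein that coats mitotic chromosomes and serves as the usual marker of proliferation, gave 307.4, 283.2 and 281.1 against 269.4, 278.8 and 272.0 CPM. Its groups lay side by side without overlap, and it did not pass (log2 fold change -0.09, SE 0.046, edgeR adjusted p = 0.233).

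Of the 5 listed subunits of condensin I, only Ncaph passed. Beside Ncaph at -0.38, Ncapd2, also of condensin I, read -0.09 (edgeR adjusted p = 0.288), and Smc2, an ATPase subunit shared by both condensins, 0.02 (edgeR adjusted p = 0.846). Ncapg, the remaining subunit of condensin I, lay between 11.50 and 14.81 CPM in Ctrl and between 13.12 and 15.97 CPM in PCBP1-OE (log2 fold change 0.11, SE 0.12, edgeR adjusted p = 0.599). Smc4, the other ATPase subunit, gave 191.8, 194.1 and 194.6 against 214.1, 205.0 and 202.3 CPM and was the only listed gene whose PCBP1-OE libraries all lay above Ctrl, with a fitted log2 fold change of 0.10 that did not pass (SE 0.043, edgeR adjusted p = 0.148). The differences between subunits were not tested.

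Other genes of mitosis were described in the same way, from 93 further symbols of the same machinery, of which 87 were tested. With 17 decreases and 0 increases past an FDR of 0.05 and a median log2 fold change of -0.060, they lay between the 52 genes and all genes tested. Over all 12624 genes tested, 5.0% passed this FDR with a decrease and 4.45% with an increase. At an unadjusted p under 0.05, 26 of the 87 had a decrease and 7 an increase, beside 3588 of all 12624 genes in either direction. DESeq2 and edgeR's exact test each called 1 of the 87 higher, beside 666 and 794 of all genes tested. The summed level of the 87 genes was 6290, 6283 and 6111 CPM in Ctrl and 5942, 5789 and 5904 CPM in PCBP1-OE, a difference of -5.62%. Troap, a spindle-associated protein, had the largest decrease (log2 fold change -0.41, SE 0.080, edgeR adjusted p = 0.0132). Next among those past the threshold were Nusap1, a microtubule-binding protein, at -0.33, Cdkn3, a phosphatase of cyclin-dependent kinases, and Cenpt, a kinetochore protein, both at -0.29, and Pttg1 (securin), the inhibitor of separase, at -0.28. Mybl2, the MYB protein of the complex that drives G2 genes, passed at -0.24 (edgeR adjusted p = 0.0271), and the 4 listed LIN subunits of that complex did not pass. Lin37 and Lin52 read -0.19 and -0.13 (edgeR adjusted p = 0.103 and 0.788), and Lin54 and Lin9 read 0.24 and 0.45 (edgeR adjusted p = 0.0543 and 0.161).

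The nearest part of the cell cycle, DNA replication, was compared by 49 S-phase genes, all of them tested. Of these, 10 passed with a decrease and 0 with an increase (23 and 1 at an unadjusted p under 0.05, and 0 increases in DESeq2 and edgeR's exact test), and the median log2 fold change was -0.14. Of all 12624 genes tested, 5.0% passed the FDR with a decrease and 4.45% with an increase. An unadjusted p under 0.05 was found for 3588 of them, in either direction. Tk1, the thymidine kinase of S phase, had the largest decrease (log2 fold change -0.37, SE 0.058, edgeR adjusted p = 0.00586), and E2f1, an activator of S-phase transcription, read -0.33 (edgeR adjusted p = 0.00977). Mcm2, Mcm3 and Mcm7, subunits of the replicative helicase, passed at -0.20, -0.26 and -0.22, while its other subunits Mcm4, Mcm5 and Mcm6 read -0.015, -0.14 and -0.14 without passing (edgeR adjusted p = 0.864, 0.0754 and 0.0587). Rrm2, the small subunit of ribonucleotide reductase, read 0.23 with overlapping groups (edgeR adjusted p = 0.131). The summed S-phase level was 4117, 4080 and 3952 CPM in Ctrl and 3728, 3665 and 3775 CPM in PCBP1-OE, a difference of -8.07%. Whether the G2 and mitosis genes moved more than the S-phase genes was not tested. In the plot of cumulative shares, all 3 cell cycle lists lie to the left of all genes tested over the middle of the range.

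**Figure D4:**
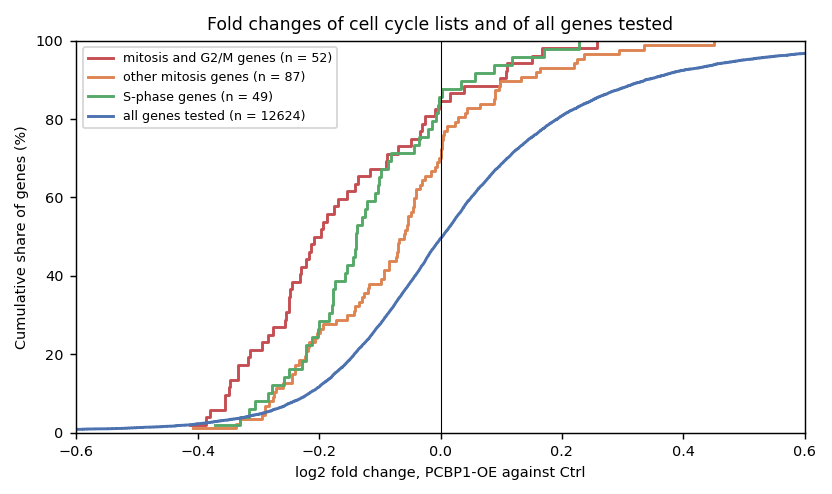
Cumulative share of genes (%) by fitted log2 fold change of PCBP1-OE against Ctrl, for the 52 mitosis and G2/M genes, 87 other mitosis genes, 49 S-phase genes and all 12624 genes tested. The medians lie at -0.20, -0.060, -0.14 and 0.0029, in that order.

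The number of listed genes past the threshold depended on which libraries were used, while the median log2 fold change moved little. It was 7 without Ctrl replicate 1, 3 without Ctrl replicate 2 and 33 without Ctrl replicate 3, of which 31 were lower, and 9, 6 and 17 without PCBP1-OE replicates 1, 2 and 3. Over all genes tested, the share past the threshold moved as well, from 0.375% without Ctrl replicate 2 to 22.3% without Ctrl replicate 3. The median log2 fold change of the 52 genes stayed between -0.22 and -0.18 in these 6 fits. Cdk1, Plk1 and Ncaph passed in all 6, and Cdc20 and Spc25 in 5. Over all 13 alternative settings, Plk1 passed in each, with a log2 fold change from -0.40 to -0.36 and an adjusted p of at most 0.0420. Pbk and Bub3 passed in the fewest among the 27, 4 of 13 each.

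**Figure D5:**
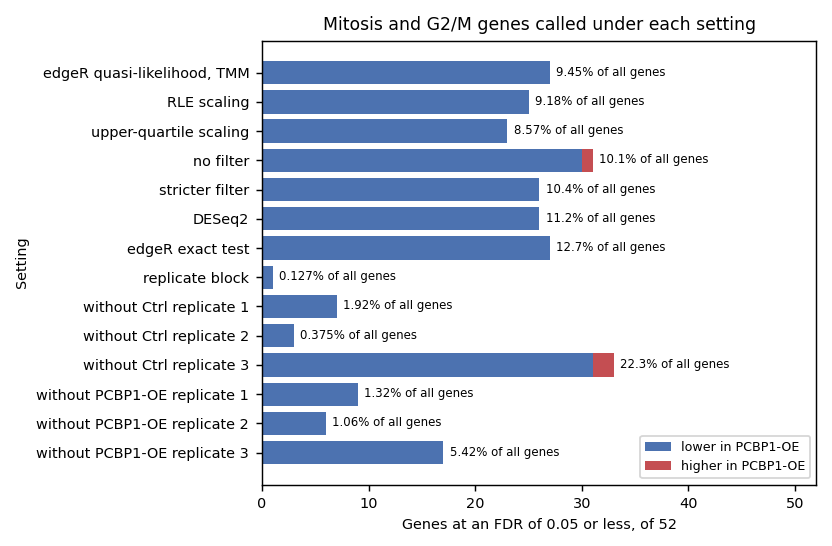
Number of the 52 genes at an FDR of 0.05 or less under each setting (bars from 0, blue lower and red higher in PCBP1-OE), with the share of all genes tested that passed under the same setting written beside each bar. The count is 27 in the first setting, runs from 23 to 31 under other scalings, filters and tests, and from 3 to 33 when a library is left out, and it is 1 with the replicate number as a block.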

How the data were processed

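RNA-seq counts of 6 libraries of PC12 cells were used, 3 Ctrl and 3 PCBP1-OE, with groups and replicate numbers taken from the sample titles. The authors purified poly-A RNA, sequenced it strand-specifically as paired ends, trimmed the reads with FASTX-Toolkit, aligned them to Rnor_6.0 with TopHat2 and deposited raw counts of uniquely mapped reads per gene. The labels name GRCh38, although the gene identifiers are those of rat. How reads were assigned to genes (tool, strand, annotation) is not given in the sources used here. Counts of overlapping and near-identical genes are uncertain. The deposited table of counts holds no comparisons of the authors.

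Counts were tested with edgeR 4.0.16 (R 4.3.3) by the quasi-likelihood test after TMM scaling. Its filterByExpr, set to a minimum count of 10 and a minimum total of 15, left out 7985 of 20609 genes. P-values were adjusted by the Benjamini-Hochberg method over all 12624 genes tested, at an FDR of 0.05. The procedure was tested on simulated data with changes of 2-fold or more. All 52 listed genes changed by less, so that simulation does not cover changes of their size. CPM uses TMM-scaled library sizes. Fold changes compare PCBP1-OE with Ctrl, and levels of different genes were not compared, since CPM is not corrected for gene length. The fit was repeated with RLE or upper-quartile scaling, without the filter, with a filter of 1 CPM in 3 libraries, with DESeq2 1.42.0, with edgeR's exact test, with a block for the replicate number, and 6 times with 1 library left out.

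The listed genes, their classes and the other lists were chosen with earlier results of these data known. Genes named in the text are every listed gene past the FDR, and in each class the one with the largest and the smallest log2 fold change and the highest mean CPM, with Cdk1, Plk1, Ccnb1, Aurka, Aurkb, Top2a, Mki67 and Foxm1. The 15 other genes (Cdc25b, Cenpa, Bub1, Bub1b, Espl1, Cenpe, Kif11, Kif20b, Kif23, Kif4a, Hmmr, Ect2, Smc2, Smc4 and Ncapd2) and the genes named from the other lists were added after their values were seen. Promoter sequences are from RefSeq (GRCr8), and figures were drawn in Python 3.11.15 with matplotlib 3.10.9.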

Additional observations from a re-analysis of the deposited data

How the results depend on the processing

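With the replicate number as a block, 1 of the 52 genes (Plk1) passed the FDR, and 0 of the other mitosis genes and 0 of the S-phase genes in edgeR's quasi-likelihood test, where 25 and 21 had a decrease and 5 and 0 an increase at an unadjusted p under 0.05. Under this block 16 of all genes passed the FDR, against 1193 without it, and all genes at that unadjusted p were not counted. Deviations from the group means correlated at -0.10, -0.081 and -0.11 for libraries that share a number. For libraries with different numbers the correlations were 0.015 to 0.083. With 3 libraries per group these values depend on one another, so they cannot decide whether the numbers pair the libraries. The study names a paired t-test for its RT-qPCR and states no pairing for the RNA-seq. Leaving out each library in turn gave 3 to 33 of the 52 genes, 0 to 34 of the other mitosis genes and 0 to 21 of the S-phase genes, in each case with the highest count without Ctrl replicate 3 and the lowest without Ctrl replicate 2, which without PCBP1-OE replicate 2 also was 0 for the other mitosis genes. With no filter on low counts, 2090 of all 20609 genes passed (10.1%), 1011 lower and 1079 higher. In that fit 26 of the other mitosis genes (22 lower, 4 higher) and 17 of the S-phase genes (16 lower, 1 higher) passed. The cause was not tested. The other scalings, the stricter filter, DESeq2 and edgeR's exact test gave 23 to 27 of the 52 genes, all lower. In these fits 8.57% to 12.7% of all genes passed. Upper-quartile scaling moved the calls over all genes from 631 lower and 562 higher to 427 lower and 655 higher, with a median of all genes at 0.023. The median log2 fold change of the 52 genes was below 0 under every alternative, and so was their summed level under RLE and upper-quartile scaling (log2 ratio -0.17 and -0.15). Counting error is largest for Nek2 and Ncapg, the listed genes with the fewest reads.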
